A study of Macaca mulatta with 5 samples.

Results

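The 41 genes described here encode transcription factors, and a few cofactors such as TLE4, that mark or specify cell classes of the forebrain. They were taken by gene symbol from the gene tables of all 5 libraries, where each symbol occurred 1 time, and they are 41 of the 21761 genes measured. RNA was counted in single nuclei of the claustrum, a narrow band of neurons that lies under the insula and beside the putamen, of 2 male rhesus macaques that received no treatment. The animal aged 17 months gave 2 libraries and the animal aged 18 months gave 3 libraries. Each age is 1 animal, so age, animal and dissection cannot be told apart, and p-values here reflect how libraries vary, not how animals vary. Levels are given as CPM, the usual scaling of counts (UMIs, or counted RNA molecules) to a common library size, taken on the summed UMIs of a class in 1 library, and values by library are listed for libraries 1 and 2 of the 17-month animal and then libraries 1 to 3 of the 18-month animal.

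Transcription factors bind regulatory DNA and set which genes a cell reads, and neurons keep many of those that specified them. Glutamatergic neurons of cortex and claustrum derive from the pallium and use TBR1, NEUROD and FEZF2 family members, while GABAergic interneurons derive from the ganglionic eminences, where the DLX genes act before LHX6 in the medial and PROX1 and NR2F2 in the caudal eminence. Striatal projection neurons come from the lateral eminence and use ISL1, FOXP1, BCL11B and MEIS2, and glial lineages use SOX10, OLIG2, GLI3 or, in microglia, the blood lineage factor IKZF1.

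Of 40005 barcodes, 37091 nuclei were kept, between 6053 and 8812 in a library, with a median of 2976 to 3485 UMIs per nucleus, and 11 to 39 barcodes were shared by any 2 libraries. The 41 members were kept out of the clustering and the naming of clusters. No level of a member thus helped to define the cells it is given for, unlike the marker levels given as checks. The 78 other transcription factors were kept out of the clustering, but NR4A2 from that list was a claustrum marker used in naming. The classes were 8560 excitatory neurons, 2638 inhibitory interneurons, 1835 striatal projection neurons, 14531 oligodendrocytes, 2062 oligodendrocyte precursors (OPC), 1185 astrocytes, 2830 microglia and smaller vessel classes. Among the excitatory neurons, 5170 were claustrum-like, 2266 THEMIS-type, 807 corticothalamic-like and 297 layer 4/5-like. Of 7 claustrum markers 6 were on in the claustrum-like nuclei, where the list summed to 1906 CPM in the lowest library, against at most 350.2 CPM in any THEMIS-type and 187.5 CPM in any corticothalamic-like sum. The striatal marker list summed to 9442 CPM or more in the striatal nuclei and to at most 601.7 CPM in the claustrum-like ones, so tissue labelled claustrum also held striatal neurons.

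By the calls used here, nearly every cell type had its own combination of factors. A factor was called on in a type where it reached 20 CPM and 10% of its level in its highest type in all but at most 1 library, and off where it stayed under 5% of that level in every library. The 40 types (clusters and classes with at least 20 nuclei in a library) showed 39 distinct combinations of factors that were on: 11 in 12 excitatory types, 12 in 12 inhibitory types, 7 in 7 striatal types, 8 in 8 glial or vessel types and 1 in an unnamed cluster. The pair with 1 combination was excitatory clusters 2 and 11, both claustrum-like, in which TBR1, BCL11B, FOXP1, TSHZ2, TFAP2D, CUX1, CUX2, MEF2C, SOX5 and NR2F1 were on. Some combinations were nearly alike: oligodendrocyte clusters 1 and 2 differed in TBR1 alone. In types with 2 libraries 1 could suffice for a call of on, and striatal clusters 6 and 7 had 1 library. How many combinations another set of 41 genes would give was not tested. By the rule for on, several of the 41 were broad: CUX1 was on in 33 types, SOX5 in 31, MEF2C and NR2F1 in 29 each, FOXP1 in 27 and BCL11B in 22. Of the 8 glial or vessel types these included 8 for CUX1 and SOX5, 7 for NR2F1 and FOXP1, 3 for MEF2C and 0 for BCL11B. A call of on there can include free RNA from neurons, whose part was not tested. NR2F1 was at 53.1 CPM in microglia, in 10.3% of nuclei, against 167 CPM in excitatory neurons. The excitatory marker SLC17A7 stood in microglia at 60.0% of its excitatory level, NPTX1 at 69.74%, CHN1 at 45.28%, CAMK2A at 21.1% and SV2B at 19.97%. Other members were narrow: PRDM16 was on in astrocytes only and IKZF1 in microglia only, OLIG2 in 2 types, and RORB, ERG and CREB3L1 in 3 types each. Among neurons, TBR1, FOXP1, MEF2C, SOX5 and NR2F1 were on in all 12 excitatory types, MEF2C in all 12 inhibitory types, and BCL11B, FOXP1, TLE4, CUX1, MEIS2 and RARB in all 7 striatal types, none of which had NR2F1 on. These calls depend on the share chosen: at 25% in place of 10% of the highest type, the calls of on summed over the excitatory types fell from 125 to 82.

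**Figure D1:**
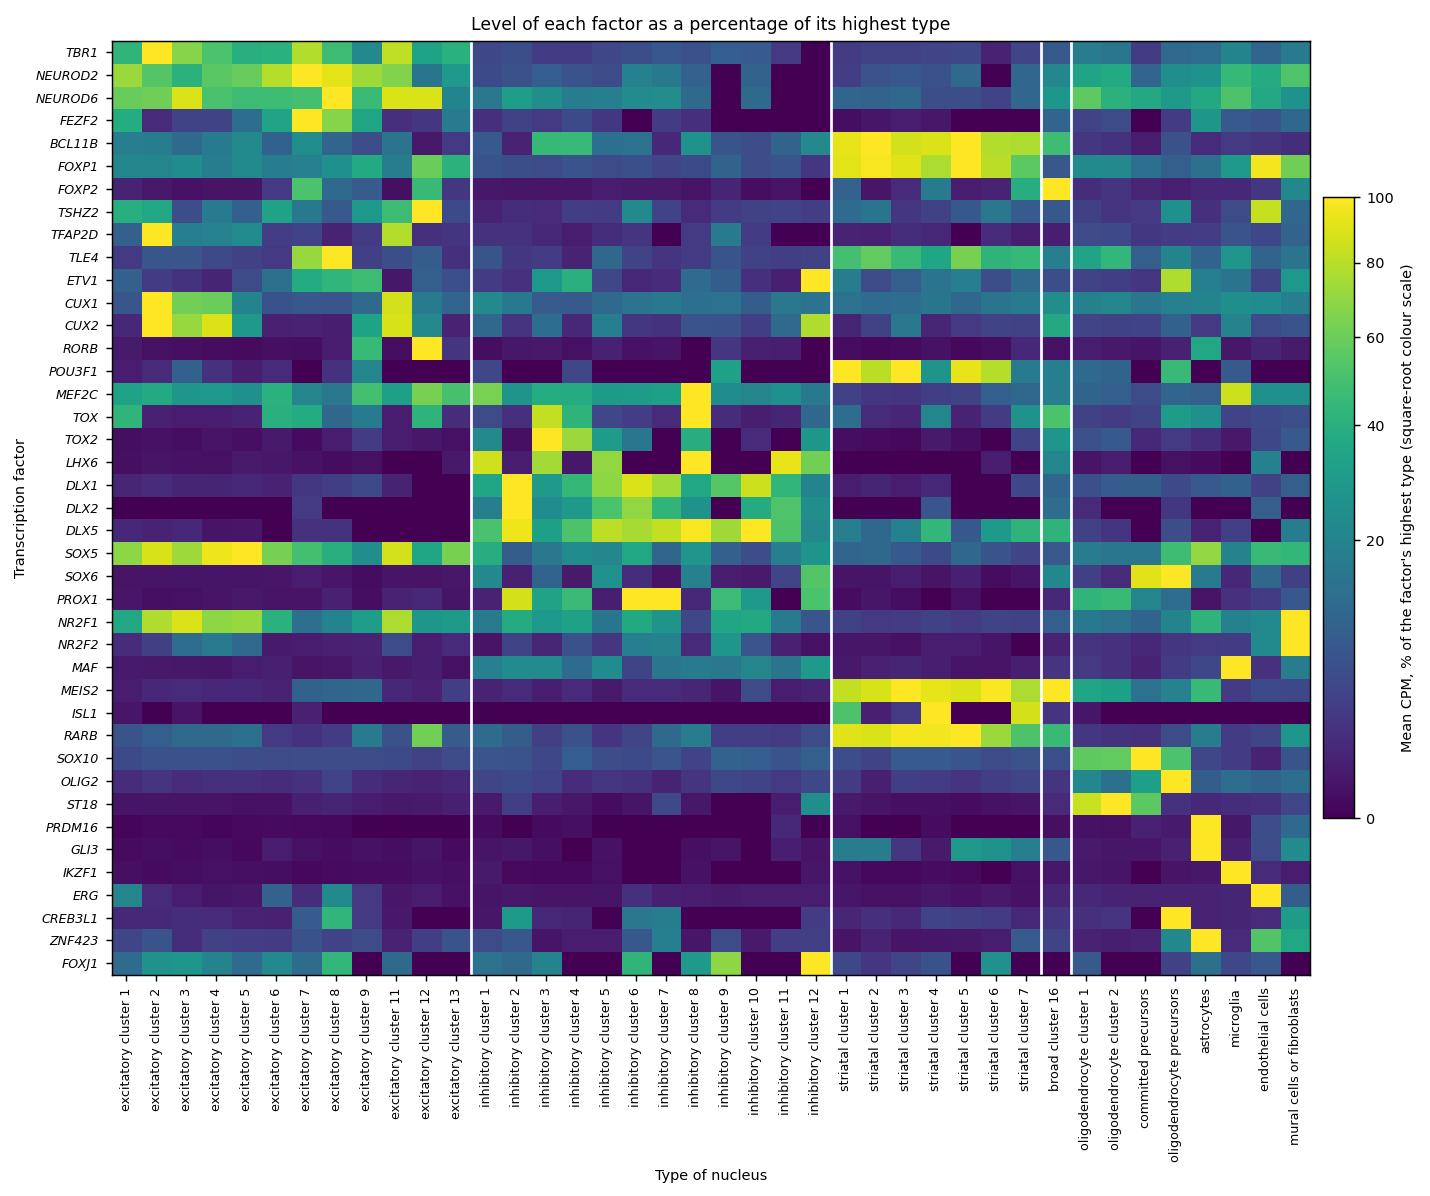
Heat map of the 41 factors (rows) in 40 cell types (columns); colour is the mean CPM over libraries as a percent of the gene's highest type, on a square-root colour scale. Blocks of high values follow the excitatory, inhibitory, striatal and glial columns, while CUX1 and SOX5 are coloured in most columns. The rows of POU3F1, ISL1, DLX2, DLX5, FOXJ1 and NEUROD2 are scaled to maxima below 20 CPM.

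The 6 members that were on in no type were low everywhere. The highest type mean was 19.4 CPM for NEUROD2, 17.4 CPM for DLX5, 10.9 CPM for ISL1, 6.32 CPM for POU3F1, 5.23 CPM for DLX2 and 3.24 CPM for FOXJ1, a factor of motile cilia. Low levels did not always mean flat levels, since NEUROD2, DLX2, DLX5, POU3F1 and ISL1 differed between classes in the comparisons that follow.

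Excitatory and inhibitory neurons differed in most of the factors. Counts were summed per library and class, and edgeR's quasi-likelihood test with the library as a block called a gene at a Benjamini-Hochberg adjusted p under 0.05 over all genes tested where the log2 fold change also reached 1 in either direction. Of the 41 members 38 were tested, and excitatory neurons had 14 of them higher and 9 lower (60.5% called). Of all 11343 genes tested 15.5% were called, 8.17% higher and 7.35% lower. The 4424 genes used for clustering, chosen for high variability, are left out of all these tests while the members are not, so in every comparison here the share of all genes is not like for like with that of the members. The median log2 difference of the 38 was 0.17, and that of all genes tested was 0.011. POU3F1, ISL1 and PRDM16 had too few counts to be tested.

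TBR1, a T-box factor of glutamatergic neurons, was at 112.5, 95.8, 103.5, 91.6 and 85.9 CPM in excitatory neurons and at 10.9, 9.50, 7.57, 7.23 and 5.26 CPM in interneurons. The groups did not overlap (log2 difference 3.69, SE 0.09, adjusted p 3.49e-12). TFAP2D, an AP-2 family factor, stood at 54.1, 33.6, 35.6, 37.7 and 50.035 CPM against 3.44, 3.56, 3.10, 2.54 and 1.502 CPM, again without overlap (log2 3.97, SE 0.15, adjusted p 2.59e-10). ERG, an ETS factor best known from vessels, was at 71.3, 44.0, 34.3, 53.9 and 53.5 CPM in excitatory neurons and at 6.35, 7.12, 1.20, 4.49 and 0.751 CPM in interneurons (log2 3.83, SE 0.31, adjusted p 0.000193). FOXP2, a forkhead factor of deep-layer and striatal neurons, varied more among libraries, with 43.7, 93.3, 48.5, 96.0 and 44.6 CPM against 8.70, 8.01, 5.68, 9.38 and 2.503 CPM (log2 3.26, SE 0.19, adjusted p 6.16e-06). In all 4 genes each excitatory sum lay above each interneuron sum. The proneural factors NEUROD2 (11.9 against 1.47 CPM) and NEUROD6 (12.03 against 3.50 CPM), and FEZF2 (10.0 against 1.13 CPM), a selector of subcortically projecting neurons, were also higher at low levels. FOXP1, TSHZ2, TLE4, CUX1, CUX2, SOX5 and NR2F1 completed the 14, from log2 1.29 for TLE4 to 2.73 for TSHZ2.

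The 9 factors lower in excitatory neurons included LHX6, PROX1 and the 3 DLX genes. LHX6, which acts downstream of NKX2-1 in medial eminence interneurons, was at 0.553, 0.343, 0.171, 0.436 and 0.215 CPM in excitatory neurons and at 59.1, 66.5, 72.8, 64.7 and 66.3 CPM in interneurons (log2 -7.50, SE 0.16, adjusted p 1.38e-11). PROX1, a homeobox factor of caudal eminence interneurons, was at 0.590, 1.03, 0.570, 0.467 and 0.393 CPM against 70.9, 64.4, 67.1, 59.0 and 70.6 CPM (log2 -6.71, SE 0.13, adjusted p 1.03e-12). TOX2, an HMG-box factor, averaged 0.862 ± 0.329 CPM (SD, n = 5) against 88.3, 97.0, 112.5, 84.0 and 95.4 CPM (log2 -6.75, SE 0.14, adjusted p 4.67e-11). The excitatory sums of these 3 genes were near 0 in each library. SOX6 was at 7.41, 7.42, 5.73, 7.53 and 5.15 CPM in excitatory neurons and at 210, 178, 263, 321 and 373 CPM in interneurons (log2 -5.23, SE 0.26, adjusted p 6.72e-05). DLX1 (0.609 against 23.6 CPM), DLX5 (0.154 against 11.1 CPM), MAF (1.43 against 55.0 CPM) and ST18 (3.86 against 24.6 CPM) were lower as well. DLX2 had 51 UMIs in interneurons and 1 UMI in excitatory neurons, a ratio of rates of 312 with a 95% counting interval of 53.5 to 12600, which covers counting error only.

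Some factors did not separate the 2 classes. BCL11B, a zinc finger factor of subcortical projection neurons and interneurons, was at 103 CPM in excitatory neurons and 115 CPM in interneurons (adjusted p 0.315), and MEF2C (766 and 984 CPM), TOX (174 and 255 CPM) and ETV1 (30.04 and 53.5 CPM) differed by less than log2 1. RORB reached log2 1.96 but not the threshold (adjusted p 0.0532). Of 73 other measured transcription factors from a list of neural regulators, 58 were tested, 10 were higher in excitatory neurons and 20 lower. LMO3 was at 896 against 99.5 CPM in excitatory neurons and interneurons. ZNF536 was at 7.88 against 893 CPM and NPAS3 at 412 against 2129 CPM.

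Claustrum-like neurons were separated from the other named excitatory neurons by CUX1, CUX2, NR2F2 and TFAP2D on the high side and by TOX, FOXP2, RORB and ERG on the low side. Of 35 members tested, 5 were called higher and 9 lower (14 of 35 called), against 8.09% of all 10986 genes (3.61% higher and 4.48% lower), with a median log2 difference of -0.206 for the members and 0 for all genes tested. The comparison pooled THEMIS-type, corticothalamic-like and layer 4/5-like nuclei in the reference.

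CUX2, a homeobox factor of upper cortical layers, was at 680, 704, 630, 706 and 661 CPM in claustrum-like neurons and at 23.1, 48.5, 12.5, 34.7 and 8.71 CPM in the others (log2 4.86, SE 0.42, adjusted p 0.00107). Its paralog CUX1 was at 1574, 1564, 1534, 1627 and 1453 CPM against 181, 213, 164, 189 and 147 CPM (log2 3.12, SE 0.07, adjusted p 2.62e-10). The claustrum-like sums of both were alike across libraries, while the reference varied more for CUX2 than for CUX1. NR2F2, an orphan nuclear receptor, was at 59.6, 65.8, 66.1, 50.4 and 57.5 CPM against 7.09, 4.82, 7.90, 5.48 and 6.95 CPM (log2 3.21, SE 0.09, adjusted p 1.69e-09). TFAP2D was at 82.7, 48.7, 48.2, 60.1 and 71.2 CPM against 12.4, 12.3, 10.2, 7.40 and 5.96 CPM (log2 2.67, SE 0.24, adjusted p 0.000690). NR2F1, the paralog of NR2F2, was higher by a smaller factor, 215 against 88.2 CPM (log2 1.29). None of these 5 overlapped between the groups.

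On the low side, TOX, an HMG-box factor, was at 16.3, 8.54, 4.48, 8.39 and 5.98 CPM in claustrum-like neurons and at 554, 387, 432, 384 and 462 CPM in the others (log2 -5.75, SE 0.26, adjusted p 8.05e-05). FOXP2 was at 6.09, 5.40, 4.18, 5.84 and 2.70 CPM against 98.8, 217, 137, 216 and 132 CPM (log2 -5.03, SE 0.23, adjusted p 5.31e-05). ERG was at 11.8, 6.42, 2.73, 4.82 and 3.81 CPM against 158, 96.7, 97.7, 119 and 157 CPM (log2 -4.50, SE 0.28, adjusted p 0.000267). In these 3 genes each library showed the difference at more than log2 3. RORB, a nuclear receptor of layer 4, was at 1.68, 2.99, 0.982, 2.54 and 0.794 CPM against 30.3, 108, 14.0, 123 and 6.51 CPM (log2 -4.80, SE 0.33, adjusted p 0.000257). Its reference level moved with the number of layer 4/5-like nuclei, which was 42, 90, 19, 136 and 10 in the 5 libraries, and against corticothalamic-like neurons alone the difference was log2 -0.64 (adjusted p 0.415). FEZF2 (2.42 against 22.4 CPM), ETV1 (9.08 against 63.2 CPM), TLE4 (36.2 against 125 CPM), CREB3L1 (1.16 against 4.84 CPM) and MEIS2 (18.6 against 47.7 CPM) were lower too, MEIS2 with overlap between the groups.

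The reference classes differed from each other in several factors. FOXP2 averaged 580 CPM in corticothalamic-like, 302 CPM in layer 4/5-like, 22.7 CPM in THEMIS-type and 4.84 CPM in claustrum-like neurons, and TLE4, a Groucho corepressor of layer 6, averaged 501, 27.2, 17.6 and 36.2 CPM in the same order. RORB averaged 790 CPM in layer 4/5-like neurons and at most 6.43 CPM in the other 3 classes. ERG was highest in THEMIS-type neurons at 148 CPM, followed by 80.4 CPM in corticothalamic-like, 16.2 CPM in layer 4/5-like and 5.92 CPM in claustrum-like neurons. CUX2 was not a claustrum-like factor alone, since layer 4/5-like neurons had 252 CPM, against 10.1 CPM in THEMIS-type and 7.78 CPM in corticothalamic-like neurons. With THEMIS-type as the only reference, added after the data were seen, TLE4 was higher in claustrum-like neurons (log2 1.02, adjusted p 0.000423), and MEIS2 (log2 0.60, adjusted p 0.118) and CREB3L1 (log2 0.24, adjusted p 0.562) also turned positive without being called. In that comparison 6 of 31 members tested were higher and 7 lower, against 7.59% of all genes called (3.84% higher and 3.75% lower), and with corticothalamic-like as the only reference 6 of 33 were higher and 10 lower, against 11.6% (5.43% higher and 6.13% lower).

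**Figure D2:**
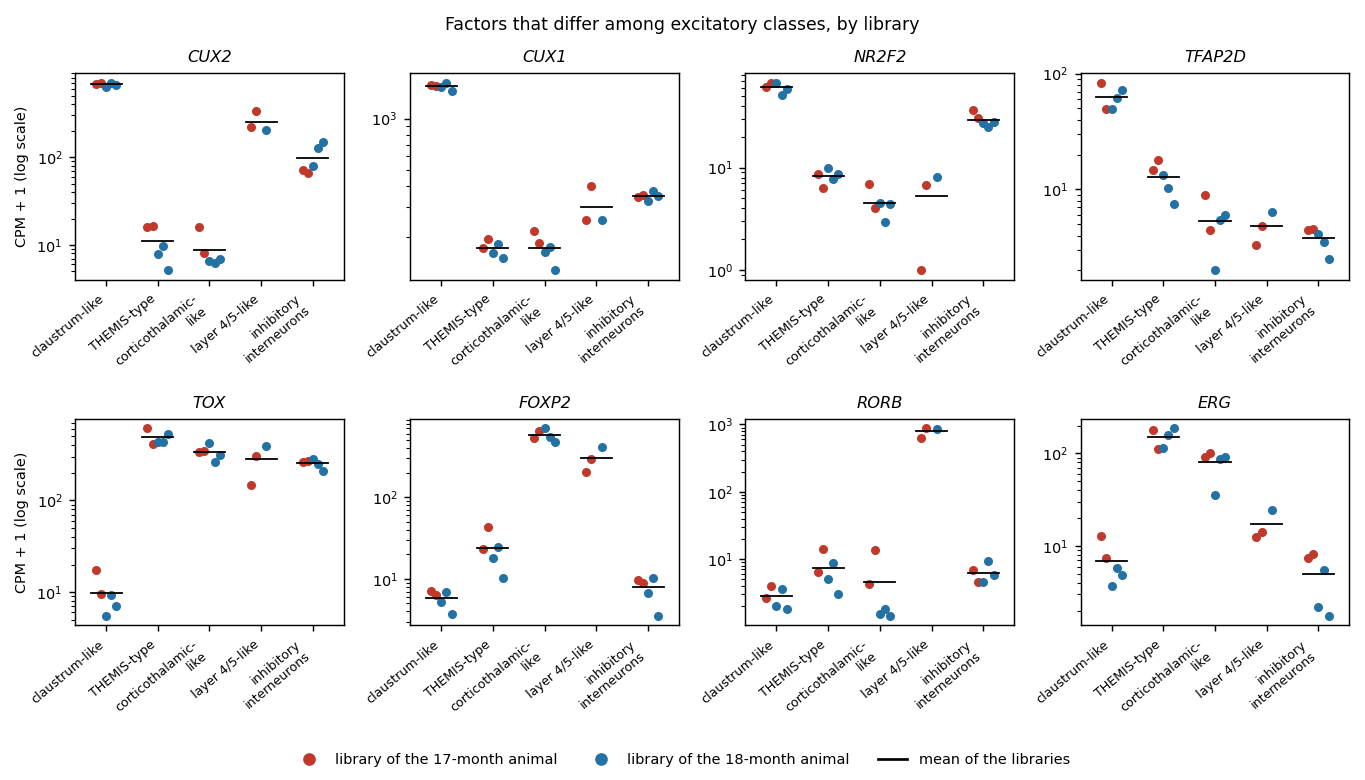
CPM + 1 on a log axis for CUX2, CUX1, NR2F2, TFAP2D, TOX, FOXP2, RORB and ERG in 4 excitatory classes and interneurons; each point is a library (red 17-month, blue 18-month animal) and the black line is the mean. The claustrum-like points of CUX1, NR2F2 and TFAP2D lie above those of the other excitatory classes, CUX2 is also high in layer 4/5-like neurons, and TOX is low in claustrum-like neurons.

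Single nuclei gave the same ordering. At least 1 CUX2 UMI was found in 93.0% of claustrum-like nuclei and in 10.2% of THEMIS-type nuclei. After each nucleus was thinned to 1500 UMIs the shares were 59.8% and 1.57%. The median depths were 16332 and 16122.5 UMIs. TOX showed the reverse, in 12.1% of claustrum-like and 82.3% of THEMIS-type nuclei (1.39% and 43.5% after thinning). Layer 4/5-like clusters held both: CUX2 and TOX were found together in 35 of 183 nuclei (19.1%) of excitatory cluster 9 and in 36 of 114 nuclei (31.6%) of cluster 12. In other excitatory clusters that share was between 2.41% and 12.4%.

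Some members were not called between claustrum-like and other neurons. TBR1 was at 111 against 77.3 CPM (log2 0.51), SOX5 differed by log2 0.53 and TSHZ2 by log2 -0.90, and BCL11B by 0.04 (adjusted p 0.516). Of the other transcription factors 52 were tested, 2 were higher and 11 lower. LMO3 was at 1125 against 525 CPM, while the zinc finger factors TSHZ3 (5.82 against 101 CPM), BCL11A (16.5 against 232 CPM) and ZEB1 (10.49 against 105 CPM) were lower.

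Within the claustrum-like neurons, TFAP2D and NR2F2 took opposite levels in clusters 2 and 4. Cluster 2 (1499 nuclei) had TFAP2D at 176, 133, 133, 151 and 169 CPM and NR2F2 at 18.7, 24.2, 13.3, 17.7 and 20.9 CPM. Cluster 4 (1436 nuclei) had TFAP2D at 40.4, 8.62, 10.0, 28.9 and 62.2 CPM and NR2F2 at 88.2, 101, 103, 76.7 and 82.7 CPM. In all 5 libraries TFAP2D was higher in cluster 2 and NR2F2 was higher in cluster 4, with no overlap between these clusters. The small cluster 11 resembled cluster 2 (119 CPM of TFAP2D and 29.0 CPM of NR2F2), and clusters 3 (28.4 and 68.2 CPM) and 5 (35.5 and 62.4 CPM) were nearer to cluster 4. By the rule for on, both genes were on in clusters 3 and 5. CUX1 was highest in clusters 2 and 11, at 2391 and 2083 CPM, followed by 1488 CPM in cluster 3, 1420 CPM in cluster 4 and 475 CPM in cluster 5, and CUX2 was lowest in cluster 5 at 256 CPM. TSHZ2, a teashirt family factor, was at 80.0 CPM in cluster 2, 104 CPM in cluster 11 and 37.6 CPM in cluster 4 but at 12.8 CPM in cluster 3. In the same nucleus both TFAP2D and NR2F2 were seen in 10.4% of cluster 2, 12.2% of cluster 3, 12.5% of cluster 4, 22.3% of cluster 5 and 16.3% of cluster 11. Singly, TFAP2D was seen in 61.2% and NR2F2 in 19.6% of cluster 2, and in 18.7% and 67.0% of cluster 4. Whether single nuclei avoid holding both was not tested. These cluster differences are descriptions without a test.

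The 2 corticothalamic-like clusters also differed. FOXP2 was at 812 CPM in cluster 7 and 184 CPM in cluster 8, TOX at 453 and 135 CPM, ERG at 14.9 and 194 CPM and CREB3L1, a membrane-bound stress factor, at 6.99 and 35.7 CPM. TLE4 was high in both, at 438 and 611 CPM. ERG was low in cluster 7 in every library (13.1, 9.92, 2.89, 16.5 and 32.2 CPM) and high in cluster 8 (235, 277, 107, 187 and 162 CPM).

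Interneuron subclasses were compared as MGE-like (SST-type and PVALB-type, 489 nuclei) against CGE-like (VIP-type and LAMP5-type, 1383 nuclei), after the medial and caudal ganglionic eminences. The unnamed inhibitory clusters 1, 9, 10 and 12 were in neither class. Cluster 1 is large (451 nuclei), and LHX6 was found in 67.2%, SOX6 in 88.9% and PROX1 in 1.33% of its nuclei. Of 28 members tested, 4 were called higher and 7 lower in MGE-like nuclei (39.3% called), against 6.78% of all 8083 genes (3.14% higher and 3.64% lower). The median log2 difference was -0.176 for the members and 0.007 for all genes.

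SOX6, which acts with LHX6 in medial eminence interneurons, was at 344, 326, 412, 432 and 486 CPM in MGE-like and at 55.9, 47.5, 88.1, 74.5 and 65.5 CPM in CGE-like nuclei (log2 2.59, SE 0.09, adjusted p 9.85e-24). LHX6 was at 110, 137, 114, 118 and 96.9 CPM against 19.3, 29.2, 41.5, 19.1 and 27.0 CPM (log2 2.10, SE 0.14, adjusted p 3.98e-11). TLE4 was at 40.3, 31.2, 44.9, 76.1 and 59.4 CPM against 15.9, 18.9, 10.6, 18.1 and 14.1 CPM (log2 1.73). CUX2 was at 100, 71.2, 115, 150 and 173 CPM against 45.6, 39.6, 38.2, 43.6 and 43.7 CPM (log2 1.53). All 4 were higher in MGE-like nuclei of each library, with no overlap. TLE4 and CUX2 were highest in SST-type nuclei and did not mark both MGE-like types. TLE4 was found in 36.9% of SST-type, 11.7% of PVALB-type, 10.7% of VIP-type and 9.21% of LAMP5-type nuclei. CUX2 was found in 44.8%, 19.7%, 11.1% and 27.0% of nuclei in the same order.

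PROX1 was at 0, 6.94, 0.917, 0 and 1.29 CPM in MGE-like and at 133, 113, 121, 117 and 137 CPM in CGE-like nuclei (log2 -6.51, SE 0.29, adjusted p 3.47e-15). NR2F2 was at 11.6, 10.4, 9.17, 11.98 and 7.75 CPM against 51.1, 37.1, 34.1, 37.7 and 41.7 CPM (log2 -1.95, SE 0.19, adjusted p 8.19e-11). ZNF423, a zinc finger factor, was at 6.26, 1.74, 3.67, 2.57 and 0 CPM against 21.1, 14.0, 13.9, 22.1 and 28.9 CPM (log2 -2.61), and ETV1 at 25.1, 26.0, 8.25, 20.5 and 19.4 CPM against 65.6, 73.7, 75.2, 54.9 and 43.0 CPM (log2 -1.67). PROX1 was nearly absent from the MGE-like nuclei, while the other 3 were lower in the pooled class. ETV1 and ZNF423 did not follow the division type by type. ETV1 was found in 49.5% of LAMP5-type, 24.4% of PVALB-type, 7.66% of SST-type and 3.79% of VIP-type nuclei. ZNF423 was found in 18.9% of VIP-type but 1.51% of LAMP5-type, 2.49% of SST-type and 1.14% of PVALB-type nuclei. NR2F1 (35.9 against 90.7 CPM) and ST18 (2.36 against 18.3 CPM) were lower too. CREB3L1 had 0 UMIs in MGE-like and 103 UMIs in CGE-like nuclei, at least 15.2-fold lower in MGE-like nuclei against a floor of 3 counts over the group. It was found in 11.4% of VIP-type but 0.854% of LAMP5-type nuclei. DLX1 (27.5 and 28.0 CPM) and MAF (58.6 and 51.1 CPM, adjusted p 0.222) were not called.

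TOX and TOX2 cut across this division as well. TOX averaged 1198 CPM in PVALB-type and 758 CPM in LAMP5-type nuclei, against 41.02 CPM in SST-type and 27.1 CPM in VIP-type nuclei, and no library of the first pair overlapped the second pair. PVALB-type is inhibitory cluster 8 alone (127 nuclei, 4 libraries), and the larger unnamed cluster 1 (451 nuclei), whose best but insufficient match was also PVALB-type, had TOX at 77.4, 43.0, 45.2, 79.5 and 66.4 CPM. After thinning, 85.3% of PVALB-type and 58.2% of LAMP5-type nuclei still held a TOX UMI. TOX2 averaged 261 CPM in LAMP5-type, 118 CPM in PVALB-type, 68.7 CPM in SST-type and 13.8 CPM in VIP-type nuclei. As pooled classes the MGE-like and CGE-like nuclei differed in TOX by log2 -0.42 and in TOX2 by -0.82 (adjusted p 0.0842), neither called. Of the other transcription factors 38 were tested, 4 were higher and 15 lower in MGE-like nuclei. TSHZ3 (216 against 34.3 CPM) and BCL11A (271 against 77.5 CPM) were higher, and the nuclear factor I genes NFIX (3.58 against 129 CPM) and NFIA (39.4 against 286 CPM) and the homeobox gene PBX3 (29.1 against 168 CPM) were lower.

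The LHX6 left in CGE-like nuclei came from 1 cluster. Inhibitory cluster 3, 319 nuclei with 3 of 4 LAMP5-type markers on, had LHX6 at 82.3, 98.4, 126, 79.7 and 117 CPM together with PROX1 at 58.6, 33.5, 57.5, 65.4 and 96.7 CPM. Inhibitory cluster 4, 312 LAMP5-type nuclei, had PROX1 at 96.2, 96.5, 97.5, 64.3 and 84.0 CPM but 1 LHX6 UMI in all. Cluster 3 had 291 LHX6 UMIs, a ratio of rates of 264 (95% counting interval 47.0 to 10500). Without cluster 3, an alternative added after the data were seen, LHX6 fell to 0.446 CPM in the CGE-like class against 115 CPM in the MGE-like class, a ratio of 297 (95% counting interval 101 to 1450), and SOX6 to 16.6 against 400 CPM (log2 4.56). CUX2 then stood at 17.7 against 122 CPM (log2 2.78, adjusted p 0.0163) and TSHZ2 was also called lower (log2 -1.29), so that 4 members were higher and 8 lower, against 6.84% of all genes called (3.2% higher and 3.64% lower).

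In single nuclei of cluster 3, at least 1 UMI of both LHX6 and PROX1 was found in 78 of 319 (24.5%, exact 95% interval 19.8 to 29.5), LHX6 alone in 112 and PROX1 alone in 35, and nuclei with both came from all 5 libraries. Inhibitory cluster 12, 82 nuclei that stayed unnamed, had both in 25 (30.5%, exact 95% interval 20.8 to 41.6). In the other 10 inhibitory clusters both were found in 0 to 4 nuclei, at most 1.57% of a cluster, and in 0 of 312 nuclei of cluster 4 (exact upper limit 1.18%). The median depths of clusters 3, 4 and 12 were 8597, 7800.5 and 11882.5 UMIs. Cluster 12 further had SOX6 at 1087 CPM, CUX2 at 676 CPM and ETV1 at 346 CPM (n = 2 libraries), each the highest mean among the inhibitory clusters. SOX6 and PROX1 occurred together in 41 of its 82 nuclei.

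**Figure D3:**
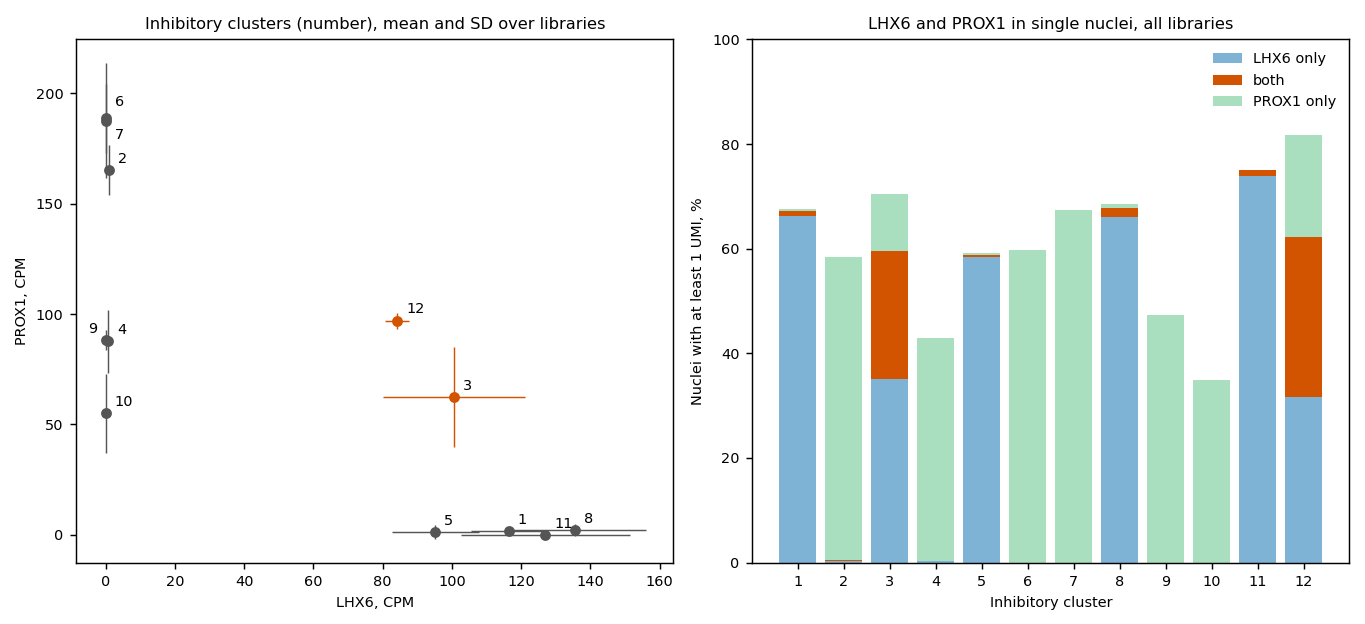
Left, LHX6 against PROX1 in CPM for the 12 inhibitory clusters (points are means and bars SDs over libraries). Right, percent of nuclei with at least 1 UMI of LHX6 only, of both or of PROX1 only. Clusters 3 and 12 (orange) are away from both axes and hold both genes in 24.5% and 30.5% of nuclei, and the other clusters lie along the axes.

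Striatal projection neurons differed from interneurons in more members than any other neuronal pair tested. Of 36 members tested, 10 were called higher and 17 lower (75.0% called), against 22.9% of all 9815 genes (10.7% higher and 12.2% lower), with median log2 differences of -0.827 and 0.028. MEIS2, a homeobox factor of the lateral eminence, was at 1179, 1209, 1265, 1279 and 1344 CPM in striatal nuclei and at 13.4, 20.8, 17.5, 21.1 and 9.26 CPM in interneurons (log2 6.52, SE 0.21, adjusted p 3.72e-07). FOXP1 was at 323, 340.5, 367, 334 and 364 CPM against 27.6, 24.0, 21.9, 23.1 and 20.8 CPM (log2 4.13, SE 0.09, adjusted p 4.98e-13), and FOXP2 at 105, 130, 99.1, 112 and 85.1 CPM (log2 4.18, SE 0.15, adjusted p 2.10e-09). These levels were even across libraries. GLI3, a zinc finger effector of Hedgehog signalling, was not: it was at 31.8, 15.4, 101, 169 and 159 CPM in striatal nuclei and at 1.09, 0.594, 2.41, 2.34 and 0.501 CPM in interneurons (log2 6.23, SE 0.25, adjusted p 7.75e-08). Both striatal sums of the 17-month animal lay below the 3 of the 18-month animal, but that difference was not called (log2 -2.61, adjusted p 0.0706). BCL11B (589 against 115 CPM), RARB (369 against 29.6 CPM), a retinoic acid receptor, TLE4 (295 against 30.04 CPM), TSHZ2 (20.4 against 8.36 CPM) and POU3F1 (4.74 against 0.180 CPM) were higher as well. ISL1, a LIM-homeobox factor of direct pathway neurons, had 86 UMIs in striatal nuclei and 0 in interneurons, at least 25.9-fold higher against a floor of 3 counts over the group.

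Interneuron factors were near 0 in striatal nuclei. LHX6 had 1 UMI there and 1569 in interneurons, a ratio of rates of 1740 (95% counting interval 311 to 68700). PROX1 (0.274 against 66.4 CPM), TOX2 (1.18 against 95.4 CPM), DLX1 (0.382 against 23.6 CPM), SOX6 (8.37 against 269 CPM) and MAF (2.25 against 55.0 CPM) differed by log2 -4.33 to -7.55. MEF2C (85.6 against 984 CPM), NR2F1 (9.56 against 67.1 CPM) and NR2F2 (2.23 against 28.2 CPM) were reduced too, and MEF2C and NR2F1 were on in most other neurons. DLX2, DLX5, ST18, ZNF423, RORB, SOX5, CREB3L1 and TOX completed the 17. The calls of CREB3L1 (log2 -1.03), TOX (-1.02) and SOX5 (-1.06) sat at the fold threshold, and leaving out library 2 of the 17-month animal took each below it, to -0.85, -0.96 and -0.98; leaving out library 1 did so for CREB3L1 (-0.94) and TOX (-0.97). Of the other transcription factors 48 were tested, 13 were higher and 16 lower. EBF1 (99.9 against 1.37 CPM), SIX3 (45.4 against 1.49 CPM) and MEIS1 (81.6 against 8.18 CPM) were higher, and ZNF536 (7.71 against 893 CPM), NFIX (1.798 against 68.9 CPM) and TCF4 (45.7 against 1478 CPM) were lower.

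Direct pathway-like striatal neurons (817 nuclei of clusters 1, 4 and 7) were compared with the clusters that carried DRD2 and PENK (1018 nuclei of clusters 2, 3, 5 and 6). Few members differed: of 22 tested, 3 were higher and 1 lower (18.2% called), against 1.13% of all 8298 genes (0.675% higher and 0.458% lower), with a median log2 difference of 0.074 for the members and 0 for all genes. FOXP2 was at 207, 232, 204, 250 and 175 CPM in direct pathway-like neurons and at 8.69, 34.8, 18.0, 9.63 and 3.27 CPM in the others (log2 4.28, SE 0.35, adjusted p 0.00441). TOX was at 181, 171, 234, 212 and 236 CPM against 15.6, 15.6, 15.5, 22.8 and 15.8 CPM (log2 3.54, SE 0.09, adjusted p 7.18e-25). CUX2 ran the other way, at 23.2, 7.65, 11.3, 16.9 and 7.76 CPM against 118, 53.9, 59.0, 57.9 and 68.4 CPM (log2 -2.36, SE 0.14, adjusted p 6.13e-12). ISL1 was at 8.34, 8.93, 10.2, 6.79 and 4.99 CPM, with 84 UMIs against 2, a ratio of rates of 51.1 (95% counting interval 13.7 to 429). None of the 4 overlapped between the groups. The factors shared by all striatal clusters were near equal: BCL11B at 586 and 590 CPM (adjusted p 0.808), RARB at 368 and 371 CPM (adjusted p 0.809) and MEIS2 at 1202 and 1300 CPM. ETV1 was at 55.3 and 28.2 CPM, a log2 difference of 0.94 below the fold threshold (adjusted p 7.14e-09). Of 42 other transcription factors tested 4 were higher and 2 lower, and EBF1 (216 against 2.32 CPM) and MEIS1 (132 against 37.6 CPM) were among the higher.

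A second pattern ran across both pathways. GLI3 was at 49.8, 45.9, 118, 236 and 229 CPM in direct pathway-like cluster 1 and at 71.6, 28.5, 166, 210 and 196 CPM in DRD2 and PENK cluster 2. It was at 5.44, 2.40, 3.09, 5.64 and 3.05 CPM in direct pathway-like cluster 4 and at 12.7, 0, 19.3, 28.6 and 32.6 CPM in cluster 3. Clusters 3 and 4 were lower than clusters 1 and 2 in each library, and as pathways the groups had 92.2 and 97.2 CPM (adjusted p 0.713). Among clusters 1 to 4, TSHZ2 followed the same split, at 27.1 CPM in cluster 1 and 33.4 CPM in cluster 2 against 8.55 CPM in cluster 4 and 5.61 CPM in cluster 3. By the rule for on, GLI3 was on in clusters 5, 6 and 7, and TSHZ2 in cluster 6 but not in clusters 5 and 7. CUX2 was highest in cluster 3, at 163, 63.7, 150, 155 and 167 CPM, against means of 9.54 to 35.9 CPM in the other clusters. TOX was high in all direct pathway-like clusters and FOXP2 was highest in cluster 7, at 615 CPM in the 1 library with at least 20 of its nuclei. At least 1 GLI3 UMI was found in 63.5% of the 512 nuclei of cluster 1 and in 4.0% of the 225 nuclei of cluster 4, at median depths of 13782.5 and 14637 UMIs. These cluster values are descriptions without a test.

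**Figure D4:**
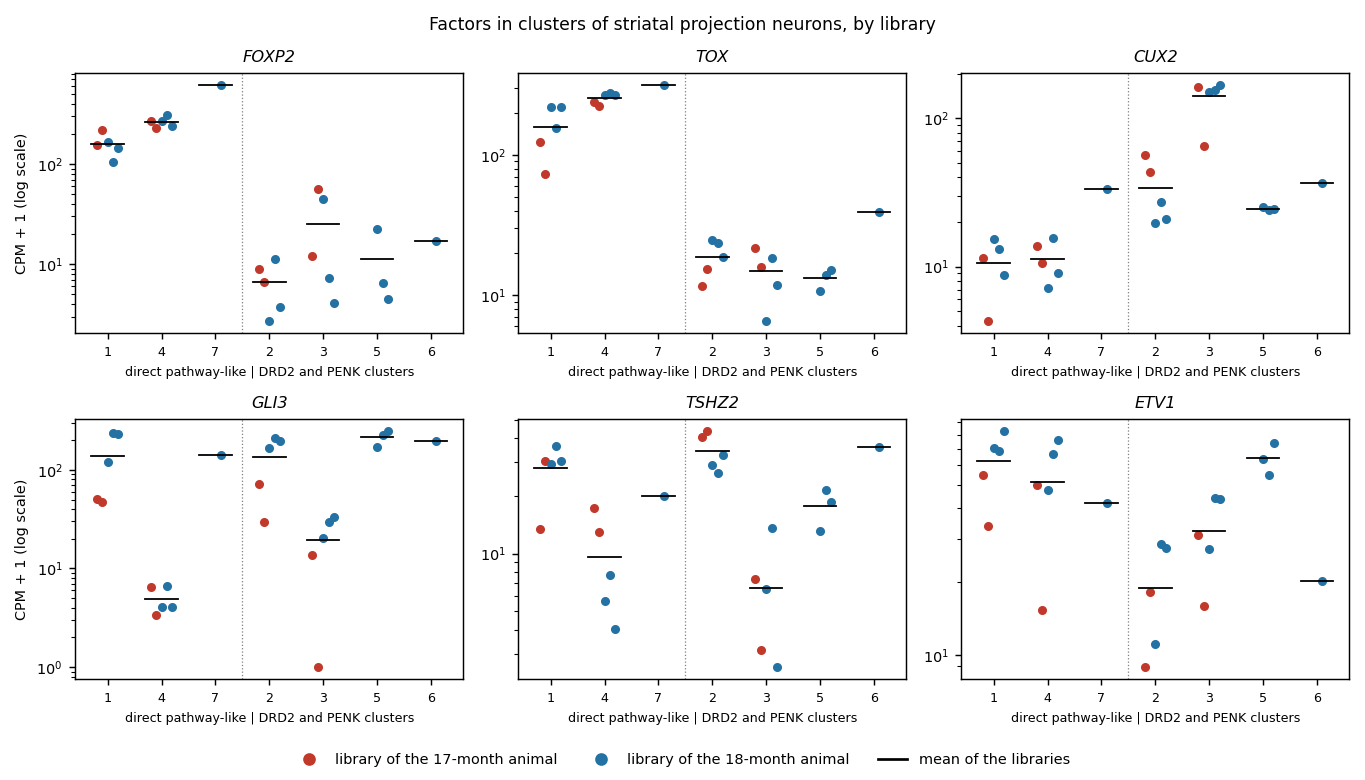
CPM + 1 on a log axis for FOXP2, TOX, CUX2, GLI3, TSHZ2 and ETV1 in striatal clusters, direct pathway-like (1, 4, 7) left and DRD2 and PENK clusters (2, 3, 5, 6) right of the dotted line; points are libraries and the black line their mean. FOXP2 and TOX change at the line, whereas GLI3 is low in cluster 4 on one side and in cluster 3 on the other.

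Broad cluster 16, 390 nuclei that carried interneuron and striatal markers and stayed unnamed, mixed the factor sets. FOXP2 was at 1696, 826, 2014, 1588 and 1752 CPM, the highest mean of any type, with MEIS2 at 1404 CPM, TOX at 619 CPM, BCL11B at 305 CPM and CUX2 at 318 CPM. FOXP1 was at 28.6 CPM there, far below the 346 CPM of striatal projection neurons. SOX6 varied from 94.3 to 1111 CPM among its libraries.

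In each glial class at least 17 of 34 members differed, tested against the other 3 classes in 1 fit of 20 sums, in which the contrast is with the mean of their log levels. Oligodendrocytes had 6 of 34 tested members higher and 13 lower, against 20.4% of all 8823 genes called (8.08% higher and 12.3% lower), and a member median of -0.448 against -0.022. ST18, a zinc finger factor of the MYT family, was at 897, 1032, 972, 918 and 998 CPM in oligodendrocytes and averaged 18.3 CPM in the others (log2 5.85, SE 0.19, adjusted p 2.08e-13). PROX1 was at 61.8, 76.8, 88.2, 87.7 and 97.3 CPM against 9.54 CPM (log2 4.27, SE 0.15, adjusted p 1.20e-17), so this factor of caudal eminence interneurons was also on in oligodendrocytes. SOX10, the lineage factor, was at 143, 176, 190, 176 and 187 CPM against 60.6 CPM (log2 2.69, SE 0.09, adjusted p 2.97e-18), and TOX2 was at 20.02 against 5.11 CPM (log2 2.40). All 5 oligodendrocyte sums of these genes exceeded each library's mean of the other classes. TLE4 (222 against 117 CPM) and MEIS2 (478 against 320 CPM) were higher by less. ZNF423 (log2 -4.04), PRDM16 (-3.41), GLI3 (-3.003) and ETV1 (-2.73) were the lowest of the 13. The calls of MEF2C (log2 -1.0004) and CREB3L1 (-1.26) were lost without 18-month library 2 (log2 -0.94 and -1.21, the latter with adjusted p 0.1002) or library 3 (-0.94 and -1.14), and that of MEF2C also without library 1 (-0.93).

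OPC had 10 members higher and 7 lower, against 17.3% of all genes called (10.1% higher and 7.13% lower), with a member median of -0.059 against -0.053. CREB3L1 was at 56.4, 75.4, 93.8, 82.6 and 102 CPM and averaged 1.09 CPM in the other glia (log2 6.31, SE 0.19, adjusted p 1.27e-18). SOX6, which holds precursors before differentiation, was at 1872, 1855, 2089, 2158 and 2195 CPM against 147 CPM (log2 4.71, SE 0.10, adjusted p 1.73e-21). OLIG2, a bHLH factor of the lineage, was at 93.1, 88.9, 106, 101 and 92.9 CPM against 13.2 CPM (log2 3.06, SE 0.11, adjusted p 6.78e-17). In these 3 genes each OPC sum lay above each library's mean of the other classes. TSHZ2 (55.9 against 7.64 CPM), ETV1 (269 against 43.3 CPM), SOX10 (158 against 66.0 CPM), TOX (363 against 132 CPM) and BCL11B (39.9 against 14.6 CPM) were higher too. PROX1 (24.2 CPM) and ZNF423 (83.8 CPM) were called higher against the mean log level but lay below the plain means of the other classes, 28.9 and 131 CPM, which oligodendrocytes and astrocytes raise. IKZF1 (log2 -2.95), PRDM16 (-2.18), GLI3 (-1.88) and MAF (-1.66) were the lowest of the 7. The call of FOXP1 (log2 -1.08) was lost without 18-month library 1 (-0.998) or library 3 (-0.96).

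Within the lineage the factors changed in a staggered way. Committed precursors, 97 nuclei with sums from the 3 libraries of the 18-month animal, had SOX10 at 367, 324 and 231 CPM, above OPC and oligodendrocytes in each of those libraries. ST18 was at 603, 575 and 668 CPM in committed precursors, between the 21.9 CPM of OPC and the 963 CPM of oligodendrocytes. CREB3L1, at 82.1 CPM in OPC, had 0 UMIs in committed precursors and 1.62 CPM in oligodendrocytes. OLIG2 fell from 96.2 CPM in OPC to 26.2, 28.5 and 37.4 CPM in committed precursors and 19.0 CPM in oligodendrocytes, and ETV1 from 269 CPM to 8.79 and 13.9 CPM. SOX6 in committed precursors differed among libraries, with 280, 2544 and 2758 CPM. These are values without a test, and the sums hold few nuclei.

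Astrocytes had 11 members higher and 11 lower, against 20.1% of all genes called (12% higher and 8.15% lower), with a member median of -0.173 against -0.040. PRDM16, a SET-domain factor of radial glia, was at 226, 285, 403, 380 and 405 CPM and averaged 1.32 CPM in the other glia (log2 8.06, SE 0.16, adjusted p 2.02e-21). GLI3 was at 726, 764, 750, 751 and 787 CPM against 5.40 CPM (log2 7.18, SE 0.11, adjusted p 1.07e-24). RORB was at 332, 333, 563, 459 and 522 CPM against 7.55 CPM (log2 5.98, SE 0.30, adjusted p 7.86e-10), and ZNF423 at 359, 399.95, 388, 389.9 and 383 CPM against 31.1 CPM (log2 5.01, SE 0.20, adjusted p 2.41e-12). GLI3 and ZNF423 were even across libraries, and PRDM16 and RORB were lower in both libraries of the 17-month animal. FEZF2 (13.5 against 2.44 CPM), RARB (71.3 against 14.6 CPM), MEIS2 (637 against 267 CPM), TOX (300.5 against 152 CPM), SOX5 (1153 against 462 CPM) and NR2F1 (116 against 51.1 CPM) were higher. SOX6 (351 CPM) was called higher against the mean log level but lay below the plain mean of 708 CPM, which OPC raise. PROX1 (log2 -4.41), IKZF1 (-2.68), CREB3L1 (-2.36) and ST18 (-2.22) were the lowest of the 11 called lower.

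Microglia, the resident macrophages, had 4 members higher and 15 lower, against 26.1% of all genes called (11.5% higher and 14.6% lower), with a member median of -0.387 against -0.034. IKZF1 was at 501, 581, 512, 537 and 561 CPM and averaged 1.88 CPM in the other glia (log2 8.12, SE 0.14, adjusted p 1.03e-22). MAF was at 228, 205, 372, 305 and 384 CPM against 10.3 CPM (log2 4.70, SE 0.10, adjusted p 8.27e-22). MEF2C was at 1864, 1932, 2206, 2200 and 2221 CPM against 244 CPM (log2 2.97, SE 0.10, adjusted p 6.03e-18), and CUX2 at 196, 197, 147, 162 and 172 CPM against 48.1 CPM (log2 1.87, SE 0.19, adjusted p 2.80e-07). In these 4 genes the microglial sums did not overlap the means of the other classes. MEF2C and MAF are thus shared with interneurons (984 and 55.0 CPM). MEF2C was not particular to these, since it was also on in every excitatory type and in endothelial cells. SOX6 (log2 -3.86), MEIS2 (-3.44), ZNF423 (-3.17) and SOX10 (-3.06) were lowest. Without 17-month library 1 the call of PROX1 (log2 -1.82) was lost (-0.32, adjusted p 0.766), and without 18-month library 3 that of RARB (-1.15) fell to -0.97.

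Of 53 other transcription factors tested in the glial fit, 10 were higher and 21 lower in oligodendrocytes, 20 and 7 in OPC, 22 and 7 in astrocytes and 8 and 28 in microglia. Among those higher were MYRF (311 against 14.6 CPM) and ZNF536 (1284 against 41.9 CPM) in oligodendrocytes and ZEB1 (1078 against 184 CPM) in OPC. Others were PAX6 (124 against 3.24 CPM) and RFX4 (629 against 47.6 CPM) in astrocytes, and RUNX1 (347 against 0.873 CPM) in microglia.

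TBR1 met the rule for on in oligodendrocyte cluster 1 (29.7 CPM), microglia (33.6 CPM) and mural cells or fibroblasts (28.2 CPM). Its level in oligodendrocytes, OPC, astrocytes and microglia was 29.1%, 19.8%, 21.3% and 34.1% of that in excitatory neurons. SLC17A7, the vesicular glutamate transporter that defines excitatory neurons, was at 54.9%, 38.6%, 43.3% and 60.0% of its excitatory level in the same classes. NPTX1 and CHN1, compared in the same way, also lay above TBR1 in each of these classes. SV2B lay below TBR1 in each of them, at 16.64%, 10.17%, 11.36% and 19.97%. CAMK2A, at 17.96%, 15.46%, 22.81% and 21.1%, lay below TBR1 except in astrocytes. The share of nuclei with a TBR1 UMI was 6.82% in oligodendrocytes and 6.61% in microglia, at median depths of 2421 and 2036 UMIs. The part of free RNA in these values was not tested. SOX10 was found likewise at 17.7 CPM in excitatory neurons and 20.2 CPM in interneurons. LHX6, by contrast, was found in 0.44% of excitatory and 0.30% of VIP-type nuclei, against 63.6% of SST-type nuclei, and MEIS2 in 99.2% of striatal nuclei against 10.8% of interneurons.

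Vessel cells carried a further set. ERG, an endothelial selector, was at 661, 1160, 722, 738 and 968 CPM in endothelial cells (382 nuclei) and in 74.7% of them, while THEMIS-type neurons had 148 CPM and a share of 50.3% (64.4% and 16.2% after thinning). Endothelial cells also had ZNF423 at 204 CPM, TSHZ2 at 184 CPM and NR2F2, a factor of venous identity, at 121 CPM. In mural cells or fibroblasts (180 nuclei, 4 libraries) NR2F2 was at 551, 453, 435 and 696 CPM, its highest level of any type, with NR2F1 at 277 CPM and GLI3 at 176 CPM.

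Between the 2 animals, the members called within a class ranged from 0 in interneurons to 4 higher and 5 lower in oligodendrocytes. Calls here rest on an adjusted p under 0.05 alone, whatever the fold, from 2 sums set against 3, and are given as higher or lower in the 17-month animal. In excitatory neurons 2 of 36 members tested were higher and 1 lower, against 13.2% of all genes called (7% higher and 6.24% lower). In claustrum-like neurons 4 of 35 were higher and 1 lower, against 11.5% (5.86% and 5.67%). In THEMIS-type neurons 2 of 29 were higher and 1 lower, against 7.98% (4.04% and 3.93%), and in striatal neurons 0 of 27 were higher and 1 lower, against 9.56% (4.69% and 4.87%). In interneurons edgeR called 0 of 34, against 6.43% (3.03% and 3.4%), with 10 at an unadjusted p under 0.05, and DESeq2 called 2 lower. Oligodendrocytes had 4 of 34 higher and 5 lower, against 12.3% (5.92% and 6.4%), and OPC 2 of 29 higher and 1 lower, against 3.9% (1.99% and 1.91%). Astrocytes had 1 of 24 higher and 3 lower, against 4.51% (1.81% and 2.7%), and microglia 0 of 25 higher and 1 lower, against 5.42% (2.97% and 2.45%). In the neuronal classes the members are not set apart by these counts. In oligodendrocytes, OPC and astrocytes the share of members called was above that of all genes, on few calls, and in microglia it was below. These counts were unstable: leaving out 1 library moved nearly all of them, as the ranges in the closing section show.

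ZNF423 showed the largest fold between animals among the called members, and was called in some classes and not in others. In claustrum-like neurons it was at 41.2 and 25.5 CPM in the 17-month libraries and at 3.29, 2.54 and 2.86 CPM in the 18-month libraries (log2 3.46, SE 0.21, adjusted p 0.000588). In THEMIS-type neurons the values were 25.5 and 24.99 against 9.66, 10.7 and 9.97 CPM (log2 1.29, SE 0.13, adjusted p 0.000228), again without overlap. Corticothalamic-like neurons overlapped, with 25.8 and 21.0 against 29.6, 17.5 and 12.2 CPM. Interneurons (adjusted p 0.439), OPC with 76.1 and 83.8 against 94.8, 78.3 and 86.0 CPM (adjusted p 0.772) and astrocytes with 359 and 399.95 against 388, 389.9 and 383 CPM (adjusted p 0.841) were not called. Oligodendrocytes were, at 8.12 and 4.604 against 1.56, 2.08 and 1.45 CPM (log2 1.78, adjusted p 0.00748), though without 17-month library 1 that call was lost (log2 1.40, adjusted p 0.0538). The interaction of animal and class was called for ZNF423 between excitatory neurons and interneurons (log2 2.51, SE 0.22, adjusted p 2.78e-05; 0.882% of all genes called, 0.247% higher and 0.635% lower) and between claustrum-like and other excitatory neurons (log2 2.40, SE 0.21, adjusted p 0.00177; 0.401%, 0.164% and 0.237%).

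**Figure D5:**
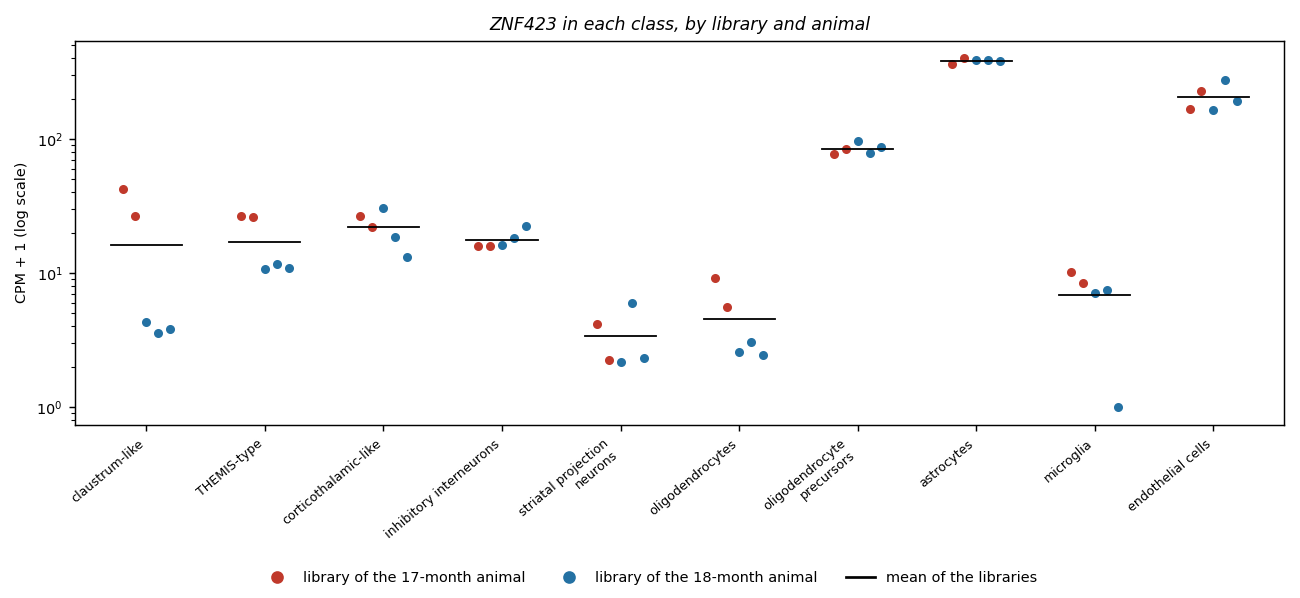
ZNF423 in CPM + 1 on a log axis in 10 classes; red points are the 2 libraries of the 17-month animal, blue points the 3 of the 18-month animal, black lines the means of the libraries. The red points lie above the blue in claustrum-like and THEMIS-type neurons and in oligodendrocytes, and among the blue in OPC and astrocytes.

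Among the other differences between the animals, those of BCL11B, MEF2C, MAF and PRDM16, and of RORB in astrocytes, were below log2 1 in size. BCL11B was lower in the 17-month animal in excitatory (84.1 against 116 CPM, log2 -0.50, adjusted p 0.0106), claustrum-like (-0.56, adjusted p 0.0106), THEMIS-type (-0.40, adjusted p 0.00912) and striatal neurons (-0.29, adjusted p 0.0251). The call was lost in the first 3 without 17-month library 1 (adjusted p 0.0866, 0.0994 and 0.175), in THEMIS-type neurons also without library 2 (0.0544), and in striatal neurons without 17-month library 2 (0.236) or 18-month library 3 (0.0509). MEF2C was higher in OPC (310 against 225 CPM, log2 0.47, adjusted p 0.00143) and oligodendrocytes (322 against 192 CPM, log2 0.73, adjusted p 0.00726; 0.0899 without 17-month library 1), and in excitatory neurons by log2 0.29 (adjusted p 0.0371). That last call was lost without 17-month library 1 (adjusted p 0.2006) or library 2 (0.215), without 18-month library 1 (0.0535) or library 3 (0.0682), and with the replicate block (0.0833). MAF was lower in microglia (216 against 354 CPM, log2 -0.68, adjusted p 0.00148), a call that held with each library left out. In astrocytes RORB (333 against 515 CPM, log2 -0.65) and PRDM16 (256 against 396 CPM, log2 -0.68; adjusted p 0.0596 without 17-month library 1) were lower. The calls of NEUROD6, TSHZ2 and MEF2C in claustrum-like neurons, of CUX2 in THEMIS-type neurons, of MEIS2 and ERG in astrocytes, of MEIS2 and ST18 in OPC and of MEIS2, OLIG2, PROX1, RORB, TOX2 and TSHZ2 in oligodendrocytes were each lost with at least 1 library left out. Some of these had large folds. With 18-month library 3 left out, log2 was 2.28 for ERG in astrocytes and 1.59 for RORB in oligodendrocytes. With 18-month library 1 left out, it was 1.16 for CUX2 in THEMIS-type neurons. The remaining call in oligodendrocytes, of a member lower in the 17-month animal, held in every alternative and is not named here.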

How the data were processed

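Nuclei from frozen claustrum of 2 macaques were profiled with the 10x 3' kit. The authors deposited 1 matrix of raw UMI counts per library; per the file headers it comes from Cell Ranger 5.0.1. The submitters' processing notes list CASAVA 1.8, Cell Ranger, Seurat and the builds Mmul_10 and mm10, and whether intronic reads were counted is not given in the sources used here. Library totals were 47512670 to 70896967 UMIs.

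Barcodes with under 500 genes (359) and likely doublets (2555, at 0.8% per 1000 barcodes) were removed. Nuclei were clustered with scanpy 1.11.5 (30 components, 15 neighbours) on 4424 genes that held 0 members, and clusters were named from marker lists. 2503 nuclei stayed unnamed at the first level. Among striatal clusters only DRD2 and PENK of the indirect pathway markers were detected, so those clusters carry these gene names. Sums of UMIs for each class in each library (20 nuclei or more) were tested with edgeR 4.0.16 (quasi-likelihood, TMM, filterByExpr, library as block); DESeq2 1.42.0 was an alternative. Genes used for clustering or naming were left out of the tests. On simulated excitatory and inhibitory sums, 99.0% of genes changed by log2 1.5 were recovered, with 0 false calls of 11166 genes tested. Every simulated gene had the same spread beyond counting error, with no library or animal effect, and only well-counted genes were changed. Recovery of low members, or of genes that vary between libraries, was thus not measured. Intervals and floors cover counting error only.

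The members and all gene lists were chosen with earlier results of these data known. Every member is accounted for; those given by library are up to 4 called members per direction with the largest fold, with a level of 20 CPM in the group that is higher and 1 direction in all libraries. Values within single clusters, pairs of genes in 1 nucleus, TOX across subclasses and the vessel classes were chosen after their values were seen. No nucleotide or protein sequence was used here. The values of some other transcription factors that the same rule selects are not reported here.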

Additional observations from a re-analysis of the deposited data

Results flagged for a closer look

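In 3 comparisons of cell classes, the difference between classes itself differed between the 2 animals for a member, by edgeR's quasi-likelihood test of the animal-by-class term. ZNF423 had an interaction of log2 2.51 (SE 0.22, adjusted p 2.78e-05) between excitatory neurons and interneurons and of log2 2.40 (SE 0.21, adjusted p 0.00177) between claustrum-like and other excitatory neurons, each time with the excess in the 17-month animal. ERG had an interaction of log2 1.19 (SE 0.19, adjusted p 0.0485) between claustrum-like and other excitatory neurons, where the claustrum-like sums were 11.8 and 6.42 CPM in the 17-month and 2.73, 4.82 and 3.81 CPM in the 18-month libraries. TOX2 had an interaction of log2 1.12 (SE 0.19, adjusted p 0.000395) between MGE-like and CGE-like interneurons, where 1 of 28 members and 0.173% of all genes were called. Between striatal projection neurons and interneurons 0 of 36 members tested were called in the interaction by edgeR, with 5 at an unadjusted p under 0.05, against 1.57% of all genes called. Each age is 1 animal, so age, animal and dissection cannot be told apart.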

How the results depend on the processing

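Of 2258 values of single genes under alternatives, 2161 kept direction and side of the threshold, 94 lost the call and 3 reversed. The 3 were MEIS2 (0.60), CREB3L1 (0.24) and TLE4 (1.02) with THEMIS-type as the only reference; the cause was not tested. At 25% of the highest type, calls of on summed to 82 in excitatory, 60 in inhibitory, 39 in striatal and 42 in glial or vessel types.

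Counts of members differing between animals moved most. With DESeq2 the lower counts were 2 in claustrum-like, THEMIS-type, interneuron, striatal and oligodendrocyte sums and 0 in OPC, and the higher counts 7 in oligodendrocytes, 0 in astrocytes and 1 in microglia. With at least 1000 genes per nucleus OPC had 2 lower. With more doublets removed THEMIS-type and striatal neurons had 2 lower and interneurons 1. Without a filter on low counts the lower counts were 2 in THEMIS-type, 4 in interneurons, 6 in striatal neurons and 4 in OPC, and the higher counts 1 in interneurons, 3 in astrocytes and 2 in microglia. Same-numbered libraries share only a number, with correlations of their deviations between -0.392 and 0.202. With the replicate block the higher counts were 1 in excitatory, claustrum-like, interneuron and microglial sums and 0 in OPC and astrocytes, and the lower counts 2 in excitatory, THEMIS-type and striatal, 4 in interneuron, 1 in oligodendrocyte and 0 in OPC sums.

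Leaving out 1 library gave these ranges of higher and lower counts: excitatory 1 to 3 and 0 to 2, claustrum-like 1 to 3 and 0 to 4, THEMIS-type 1 to 3 and 0 to 2, interneurons 0 to 1 and 0 to 3, striatal 0 to 1 and 0 to 2, oligodendrocytes 0 to 8 and 1 to 6, OPC 1 to 3 and 0 to 3, astrocytes 0 to 2 and 2 to 3, and microglia 0 to 3 and 1. Calls of on in striatal types ranged from 42 to 64. The sums of committed precursors rest on 97 nuclei.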
